A study of Homo sapiens with 6 samples.

Results

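The genes described here are 8 lysosomal peptidases, CTSS, CTSA, CTSB, CTSC, CTSD, CTSH, CTSZ and LGMN, together with CST3, an inhibitor of several of them. They are 9 of 63677 gene IDs in the deposited table and are represented by 118 of 215170 transcripts. They were chosen by name with their values in the comparison of HA-TAZ with control libraries already in view, so every difference between the groups given for them is a description and carries no test. All 9 passed the filter on level, a mean of at least 1 TPM (transcript level as a length-corrected share of the library), and each was above it in both groups.

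The libraries came from KMS27, an established human myeloma line, and hold total RNA depleted of ribosomal RNA. The HA-TAZ group, 3 libraries, came from KMS27 cells overexpressing TAZ (gene WWTR1) with an HA tag, and the wild type group, 3 libraries, from KMS27 cells labelled wild type. The labels do not give the promoter, the vector or whether a clone was used, the titles of wild type samples also carry HA, and nothing says that the 3 libraries of a group came from separate cultures, so the spread between them may be technical. The 3 columns assigned to wild type by elimination are named controls a, b and c here.

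Lysosomal peptidases degrade proteins delivered by endocytosis and autophagy, are made as inactive precursors and mature in the acidic lumen. Most cathepsins are cysteine proteases with a papain fold, whereas CTSD is an aspartic protease and CTSA a serine carboxypeptidase. In B lineage and other antigen-presenting cells some of them also cut antigens and the invariant chain (CD74) that occupies class II molecules. Many lysosomal genes carry a short element, called CLEAR, that factors of the MiT/TFE family (TFEB, TFE3, MITF) bind.

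The sequence upstream of the start site was available from RefSeq (GRCh38.p14) for 6 of the 9 genes, CTSA, CTSC, CTSD, CTSH, CTSZ and CST3. The core of the CLEAR element, CACGTG, was searched in the 250 bases before each start. It was found in CTSA and CTSD and in none of the other 4, while 6.34% of 35116 promoters of this length hold it. The promoters of CTSA (chr20:45891085-45891334, plus strand) and CTSD (chr11:1763928-1764177, minus strand) are printed because they hold this match, shown in capitals. That of CTSZ (chr20:59007255-59007504, minus strand) is printed because the level of this gene was lower in HA-TAZ libraries. CTSA and CTSD overlapped between the groups as deposited and were higher only after the scaling explained below. So was CTSC, which lacks the match. Capitals in CTSZ mark a match to the kappa B consensus, which 9.96% of promoters hold. The sequences run 5′ to 3′ on the gene's strand.

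CTSA: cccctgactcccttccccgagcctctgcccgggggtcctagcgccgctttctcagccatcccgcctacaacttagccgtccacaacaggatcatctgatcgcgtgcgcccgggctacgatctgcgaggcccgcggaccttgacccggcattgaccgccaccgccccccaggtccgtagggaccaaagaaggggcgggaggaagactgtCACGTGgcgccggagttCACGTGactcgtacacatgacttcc
CTSD: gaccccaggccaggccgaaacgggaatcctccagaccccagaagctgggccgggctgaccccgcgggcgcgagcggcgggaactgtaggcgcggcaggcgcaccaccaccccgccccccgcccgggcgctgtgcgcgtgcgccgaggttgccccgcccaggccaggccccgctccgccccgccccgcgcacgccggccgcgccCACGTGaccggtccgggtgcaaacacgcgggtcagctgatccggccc
CTSZ: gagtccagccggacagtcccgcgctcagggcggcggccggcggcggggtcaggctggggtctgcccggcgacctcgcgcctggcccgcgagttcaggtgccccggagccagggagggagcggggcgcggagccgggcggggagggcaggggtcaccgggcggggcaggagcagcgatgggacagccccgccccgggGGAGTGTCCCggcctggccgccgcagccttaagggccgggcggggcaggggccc

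CTSA held the CLEAR core at 2 positions, starting 42 and 25 bases before the start site, and CTSD at 1 position, starting 47 bases before it. Motifs on either strand for TEAD factors (GGAATG, in 11.9% of promoters), AP-1 (TGANTCA, 6.57%), interferon-stimulated response elements (TTCNNTTTC, 6.88%) and STAT factors (TTCNNNGAA, 6.57%) were in none of the 6 windows. A GC box (GGGCGG, 42.6% of promoters) was in each of the 6. The windows were rich in G and C, from 58.4% in CTSC to 81.2% in CTSZ. The bases just after the RefSeq start were found near the 5′ end of a GENCODE release 29 transcript of the same gene for the 5 others and not for CTSZ. A match shows only that these letters are present.

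The targeted gene was checked first. WWTR1 was at 293, 306 and 293 TPM in the HA-TAZ libraries, against 2.69, 2.22 and 1.69 TPM in the controls. Among markers of plasma cells, 10 of 10 were above 1 TPM on average, and their sum ranged from 2825 to 3262 TPM in HA-TAZ libraries and from 4308 to 4877 TPM among controls, most of it IGJ. The sums here are in TPM as deposited, and the markers did not move alike. With the scaling and fit explained below, CD38 was called lower (log2 fold change −0.61) and SLAMF7 higher (0.95). The other markers of plasma cells were not called, IGJ at −0.33 among them. Cathepsins are also abundant in macrophages. Of 15 markers of macrophages and monocytes, C1QA, C1QB, C1QC, S100A8 and S100A9 were listed at 0 in every library, 2 were above 1 TPM on average, and the sum was 11.5 to 15.5 TPM in HA-TAZ and 17.6 to 27.9 TPM in controls, most of it CD163. On the same scale as above, CD163 and CSF1R, the 2 above 1 TPM, had log2 fold changes of −0.58 and 0.07, and neither was called. The part of the difference between these sums in the results on cathepsins was not tested. In bulk RNA, fewer cells of a type and less RNA per cell cannot be told apart.

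In the control cells CTSD was the most abundant of the 9 at 64.7 ± 2.79 TPM (SD, n = 3), followed by CTSC at 57.3 ± 4.84, CTSA at 51.6 ± 2.902 and CST3 at 49.5 ± 0.999 TPM. The libraries of neighbouring genes in this series of 4 overlapped, so their order is not fixed. CTSZ at 38.7 ± 3.88, LGMN at 30.8 ± 1.02, CTSS at 24.3 ± 0.757 and CTSB at 21.2 ± 1.09 TPM followed, each apart from the next in every library. CTSH, at 3.04 ± 1.05 TPM, was the lowest. The 9 mean levels lay between percentiles 30.6 (CTSH) and 93.6 (CTSD) of all 22651 tested genes. In HA-TAZ libraries the order changed in 1 place, where CTSS, at 25.5 ± 1.76 TPM, stood above LGMN, at 22.01 ± 0.710 TPM. CTSS then overlapped its other neighbour, CTSZ, at 26.2 ± 1.002 TPM.

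TPM is a share of a library, so the TPM of a gene also depends on the other RNAs in it. Each library was therefore also divided by a median-of-ratios factor. The factors of HA-TAZ 1 to 3 were 0.866, 0.967 and 0.890, and those of controls a to c were 1.21, 1.09 and 1.06. The result is called scaled TPM. Over all tested genes the median log2 fold change of HA-TAZ over control was −0.03 in scaled TPM and −0.27 in TPM as deposited, and both scales are given for each gene, because the direction of several of them depends on the choice.

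**Figure D1:**
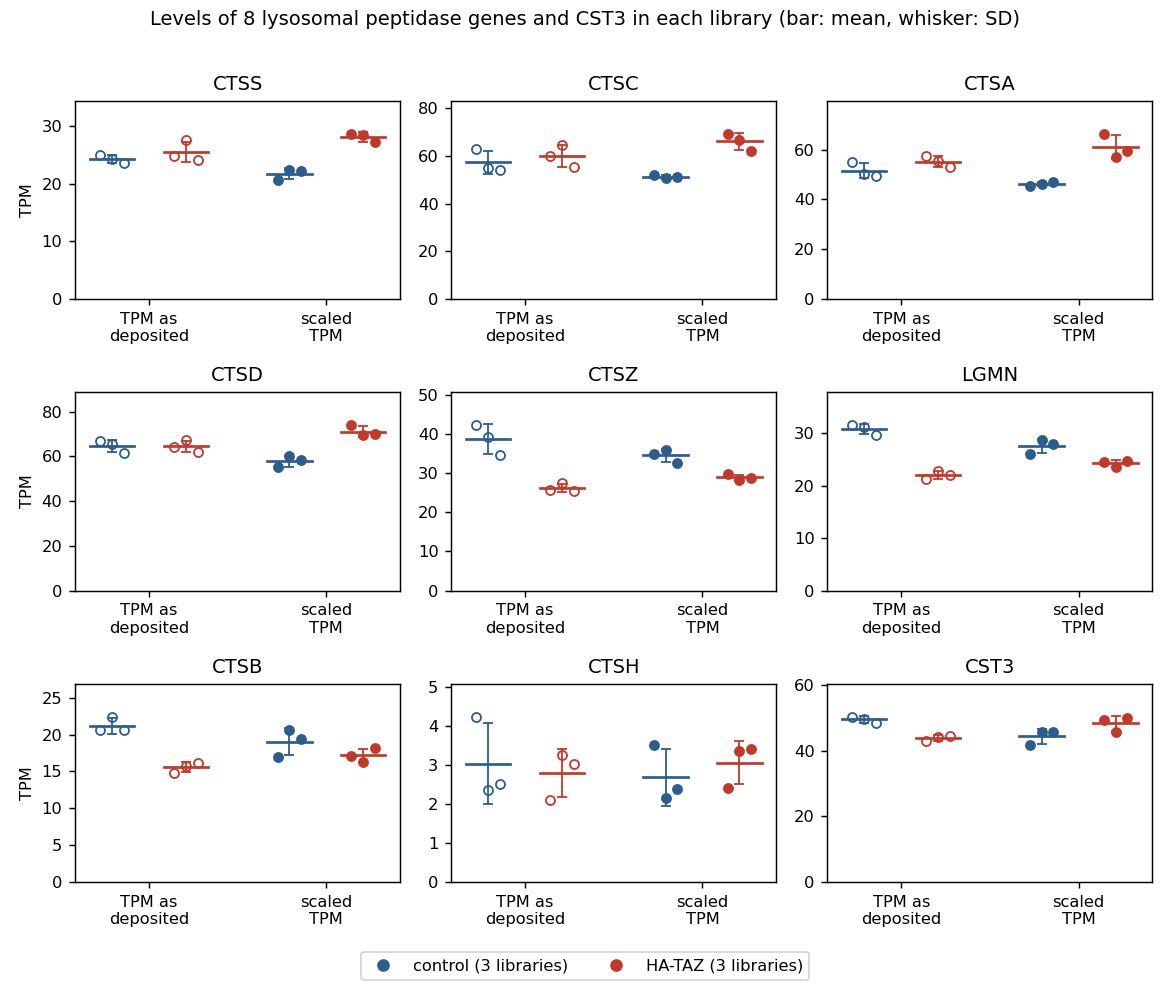
Level of each gene in each library, on a linear axis of TPM starting at 0; open points are TPM as deposited and filled points scaled TPM, with horizontal bars at the mean and whiskers of 1 SD over 3 libraries. CTSS, CTSC, CTSA and CTSD are higher in the HA-TAZ libraries in scaled TPM but overlap as deposited, while CTSZ and LGMN are lower on both scales.

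CTSS encodes cathepsin S, a cysteine protease that stays active at neutral pH and trims the invariant chain in antigen-presenting cells. In TPM as deposited, CTSS stood at 24.8, 27.5 and 24.1 in the HA-TAZ libraries (1 to 3, the order kept throughout) against 24.99, 24.3 and 23.5 in controls (a to c). These values overlapped. In scaled TPM they became 28.6, 28.4 and 27.1 against 20.7, 22.3 and 22.2, and every HA-TAZ library was above every control. The log2 fold change, here and below of (scaled TPM + 1), was 0.35 (SE 0.05), and 0.07 (SE 0.07) as deposited.

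CTSC encodes dipeptidyl peptidase I, which removes dipeptides and activates serine proteases of granules. Scaled TPM was 69.2, 66.8 and 62.1 in the HA-TAZ libraries and 52.0, 50.6 and 51.1 in the controls, without overlap, and the log2 fold change was 0.36 (SE 0.05). As deposited it was at 59.9, 64.6 and 55.3 against 62.9, 55.1 and 54.0 TPM, and control a lay above HA-TAZ 1 and HA-TAZ 3.

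CTSA encodes protective protein, a carboxypeptidase that also stabilises lysosomal β-galactosidase (GLB1) and neuraminidase (NEU1). Its scaled TPM of 66.3, 57.2 and 59.4 in HA-TAZ libraries stood above 45.4, 46.2 and 46.9 in controls, a log2 fold change of 0.39 (SE 0.06). HA-TAZ 1 was the highest library. As deposited the values were 57.4, 55.3 and 52.9 against 54.9, 50.3 and 49.6 TPM and overlapped.

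CTSD, the main aspartic protease of the lysosome, was at 73.9, 69.4 and 69.9 scaled TPM in HA-TAZ libraries and at 55.3, 60.2 and 58.2 in controls. Its log2 fold change was 0.29 (SE 0.05). As deposited, the values of 64.0, 67.1 and 62.2 against 66.9, 65.6 and 61.6 TPM were interleaved, and the log2 fold change turned to −0.0053. The direction of CTSD thus depends on the scaling.

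CTSZ encodes a cysteine carboxypeptidase. CTSZ stood at 25.8, 27.4 and 25.6 TPM in the HA-TAZ libraries, against 42.3, 39.3 and 34.6 TPM in the controls. The groups did not overlap, and did not after scaling either, at 29.7, 28.3 and 28.7 against 35.0, 36.03 and 32.7. The log2 fold change was −0.25 (SE 0.05) in scaled TPM and −0.54 (SE 0.09) as deposited.

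LGMN encodes legumain, which cuts after asparagine and takes part in the maturation of several cathepsins. LGMN stood at 21.3, 22.7 and 21.98 TPM in HA-TAZ libraries, against 31.5, 31.2 and 29.6 TPM in controls. After scaling these became 24.6, 23.5 and 24.7 against 26.1, 28.6 and 28.0, still without overlap but with a smaller gap. The log2 fold change was −0.18 (SE 0.05) in scaled TPM and −0.47 (SE 0.06) as deposited.

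CTSB, a cysteine protease that acts as endopeptidase and as dipeptidyl carboxypeptidase, was at 14.8, 15.8 and 16.2 TPM in HA-TAZ libraries, against 20.6, 22.5 and 20.6 TPM in controls. In scaled TPM the groups overlapped, at 17.1, 16.3 and 18.2 against 17.0, 20.6 and 19.5. The log2 fold change was −0.14 (SE 0.08) and −0.42 (SE 0.07) on the 2 scales.

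CTSH, a cysteine protease with aminopeptidase activity, was at 2.09, 3.25 and 3.03 TPM in HA-TAZ libraries, against 4.24, 2.35 and 2.51 TPM in controls, and overlapped on both scales. Control a was the highest of the 6 libraries. The log2 fold change was 0.15 (SE 0.18) in scaled TPM and −0.07 (SE 0.22) as deposited.

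CST3 encodes cystatin C, a secreted inhibitor of cysteine cathepsins. As deposited CST3 stood at 42.8, 44.1 and 44.5 TPM in HA-TAZ libraries, against 50.4, 49.8 and 48.4 TPM in controls, without overlap and lower. In scaled TPM it was at 49.5, 45.7 and 49.98 against 41.7, 45.7 and 45.8, with overlap and a higher mean. The log2 fold change was 0.12 (SE 0.06) in scaled TPM and −0.17 (SE 0.05) as deposited, so no direction is given for CST3.

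In the limma fit over all 22651 tested genes, 7.29% had a Benjamini-Hochberg adjusted p under 0.05 (called below), 4.67% higher and 2.63% lower in HA-TAZ libraries. Of the 9 genes, 5 were called, CTSS, CTSC, CTSA and CTSD higher and CTSZ lower. With a pseudocount of 0.1 CTSZ was not called and the other 4 were. With TPM as deposited 14.7% of all genes were called and 3 of the 9, CTSZ, LGMN and CTSB, all lower. The groups did not overlap for 6 of the 9 in scaled TPM, against 38.5% of all tested genes, and for 4 of the 9 as deposited, against 48% of all tested genes. These counts are given beside the share in all genes and nothing is read from them, because the same contrast was in view when the genes were chosen. The median log2 fold change of the 9 was 0.15 in scaled TPM and −0.07 as deposited. The calls did not outlast the loss of a library. Without HA-TAZ 3 only CTSC was called, and without any other single library 0 of the 9 were, while the log2 fold changes kept their signs in these 6 fits. They ranged from 0.32 to 0.38 for CTSS, from 0.34 to 0.44 for CTSA, from −0.29 to −0.22 for CTSZ and from −0.22 to −0.15 for LGMN.

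**Figure D2:**
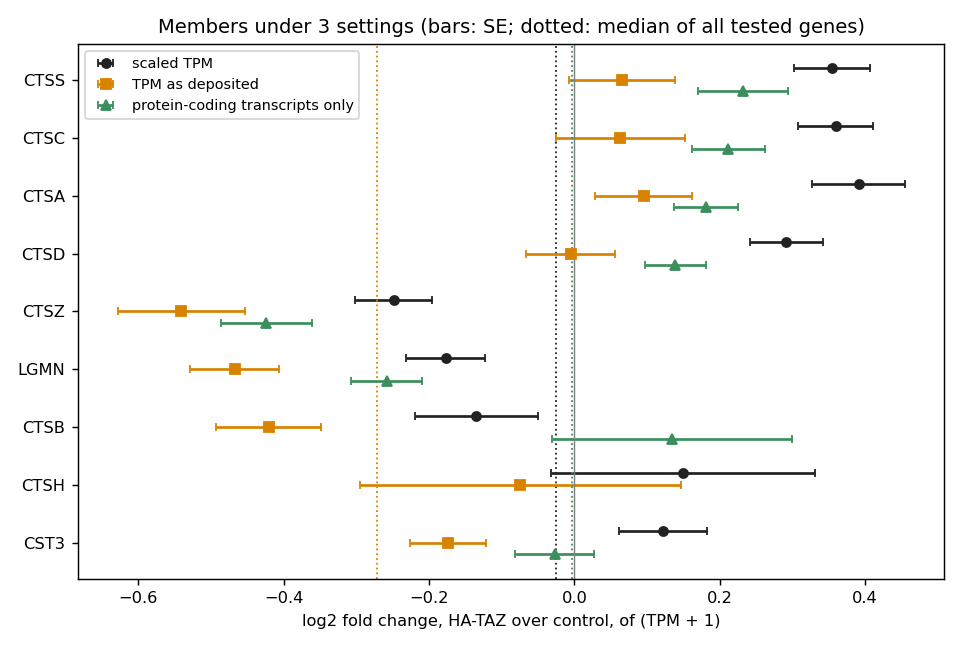
Log2 fold change of HA-TAZ over control for each gene (horizontal axis) in scaled TPM, in TPM as deposited and with protein-coding transcripts only and factors computed from them, with bars of 1 SE and dotted lines at the median of all tested genes in the same setting. The 4 genes at the top lie right of the dotted line in each setting and CTSZ and LGMN left of it, while the position relative to 0 shifts with the setting.

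The place of the genes in a distribution of fold changes describes the same split without a zero point, but depends on the genes compared. CTSS, CTSC, CTSA and CTSD lay at percentiles 89.9, 90.1, 92.0 and 84.8 of the 11676 tested genes with a protein-coding transcript. CTSZ, LGMN and CTSB lay at percentiles 9.65, 15.3 and 19.6. CST3 and CTSH, at 60.9 and 65.7, were near the middle. Among all 22651 tested genes CTSZ, LGMN and CTSB lay less far down, at percentiles 24.696, 31.57 and 36.025. There CTSS, CTSC, CTSA and CTSD lay at 89.555, 89.762, 91.36 and 85.948, and CST3 and CTSH at 69.202 and 72.615. The low place of CTSZ, LGMN and CTSB thus depends on the background, and the high place of the 4 others changed little.

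Ratios between 2 of these genes within a library do not depend on the scaling between libraries. CTSS over LGMN was 1.16, 1.21 and 1.10 in HA-TAZ libraries and 0.792, 0.778 and 0.792 in controls, so the balance between these enzymes passed from more LGMN to more CTSS transcript. CTSA over CTSZ was 2.23, 2.02 and 2.07 against 1.30, 1.28 and 1.43. CTSD over CTSB was 4.33, 4.25 and 3.84 against 3.25, 2.92 and 2.99. The groups did not overlap in any of these 3 ratios, which sum transcripts of all types. With protein-coding transcripts alone and the same scaling factors, the log2 fold change of CTSB was 0.27 (SE 0.17) and that of CTSD 0.29. CTSB thus belongs to the lower set when all its transcripts are summed, and not with those typed as protein-coding alone, which leave out transcripts without a type. CTSS over CST3, protease over inhibitor, was 0.578, 0.622 and 0.543 against 0.496, 0.488 and 0.485, also without overlap. CTSA and CTSD over CST3 were higher in HA-TAZ libraries as well. Neither is a cysteine protease, the kind that CST3 inhibits, so these 2 are not ratios of a protease to its inhibitor. CTSC and CTSH over CST3 overlapped, and the other 3 ratios to CST3 were lower without overlap. CTSZ over CST3 was 0.602, 0.620 and 0.575 against 0.839, 0.789 and 0.714.

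Within each of the sets that moved alike the ratios overlapped between groups for the pairs CTSC over CTSS, 2.35 ± 0.0659 in HA-TAZ and 2.36 ± 0.134 in control libraries, CTSZ over LGMN, 1.19 ± 0.0251 and 1.26 ± 0.0866, and LGMN over CTSB, 1.41 ± 0.0466 and 1.45 ± 0.0727 (SD, n = 3 each). CTSA over CTSD was an exception, at 0.897, 0.823 and 0.850 against 0.821, 0.767 and 0.806, without overlap but with HA-TAZ 2 next to control a. A ratio shows unequal change of its 2 genes and does not say which of them moved. The pairs were picked after their values were seen.

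**Figure D3:**
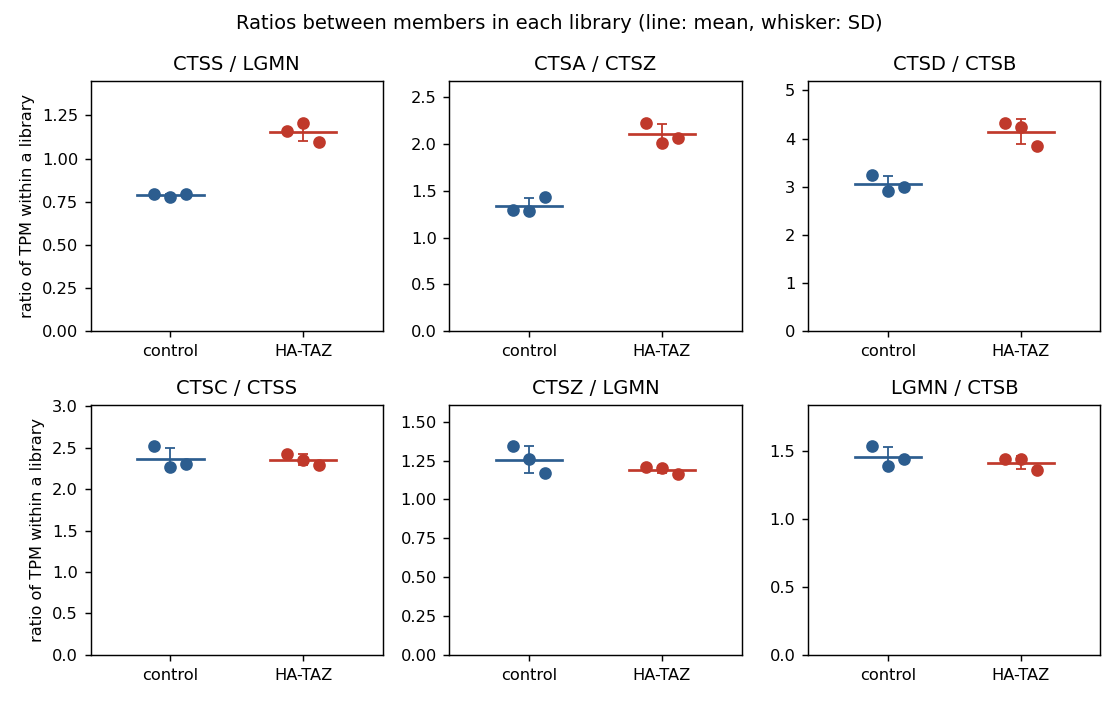
Ratio of TPM between 2 genes in each library (vertical axis from 0, no unit), with lines at the mean and whiskers of 1 SD over 3 libraries. In TPM of all transcripts, the upper row pairs a gene of the higher set with a gene of the lower set and the groups separate. CTSS over LGMN, for example, was 1.10 to 1.21 against 0.778 to 0.792. CTSB is in the lower set when all its transcripts are summed, and not with those typed as protein-coding alone. The lower row pairs genes within a set, and the groups overlap in the pairs drawn. CTSA over CTSD, also a pair within a set, did not overlap and is not drawn.

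The genes differed in how their level was spread over transcripts, which the quantification assigns from reads that several transcripts share. CTSZ was the simplest, with 85.2 ± 4.17% (HA-TAZ) and 87.1 ± 3.06% (control; SD, n = 3 each) of its TPM on ENST00000217131.5. This transcript was at 21.8, 22.3 and 22.9 TPM in HA-TAZ libraries, against 35.4, 35.1 and 30.6 TPM in controls, and carried the lower level of the gene. CTSS was divided between ENST00000448301.2, with 49.8% of the gene over all libraries, and ENST00000368985.3, with 33.9%. In scaled TPM both stood higher in each HA-TAZ library than in any control, and their shares overlapped between groups. In CTSC the transcript ENST00000227266.5, with 56.9% of the gene, carried the higher scaled level, while ENST00000527018.1 overlapped and was at 20.7 TPM in control a against 11.5 and 10.1 TPM in the other controls.

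CST3 had a transcript pattern that its summed level did not show. ENST00000376925.3 was at 24.6, 22.8 and 33.1 TPM in HA-TAZ libraries, against 8.11, 16.3 and 20.2 TPM in controls. ENST00000398409.1 went the other way, at 17.4, 20.5 and 10.5 TPM against 41.0, 32.4 and 27.4 TPM. The share of ENST00000376925.3 in the gene was thus 57.4, 51.7 and 74.5% in HA-TAZ libraries and 16.1, 32.7 and 41.6% in controls, without overlap. In GENCODE release 29, which holds a later version of the first, the transcripts are 873 and 832 bases long. There 88.0% of the 31-base words of the first occur in the second. The share of reads that cannot tell them apart was not computed, so the split between them is uncertain. The authors' deposited table called neither transcript, with q-values of 0.113 and 0.115.

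CTSD had a similar pair with overlap. The full-length ENST00000236671.2 was at 55.4, 52.5 and 60.3 TPM in HA-TAZ libraries, against 34.4, 45.2 and 50.1 TPM in controls, higher without overlap also as deposited. The shorter ENST00000429746.1 was at 7.99, 13.1 and 1.32 TPM against 31.4, 19.8 and 11.2 TPM, and HA-TAZ 2 lay above control c. It shares 77.9% of its 31-base words with the long form. In both genes control a, which also had the highest scaling factor, had the largest share on the shorter transcript, 81.4% in CST3 and 46.9% in CTSD, and HA-TAZ 3 the smallest, 23.7% and 2.12%. The part of library composition in these shares was not tested.

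**Figure D4:**
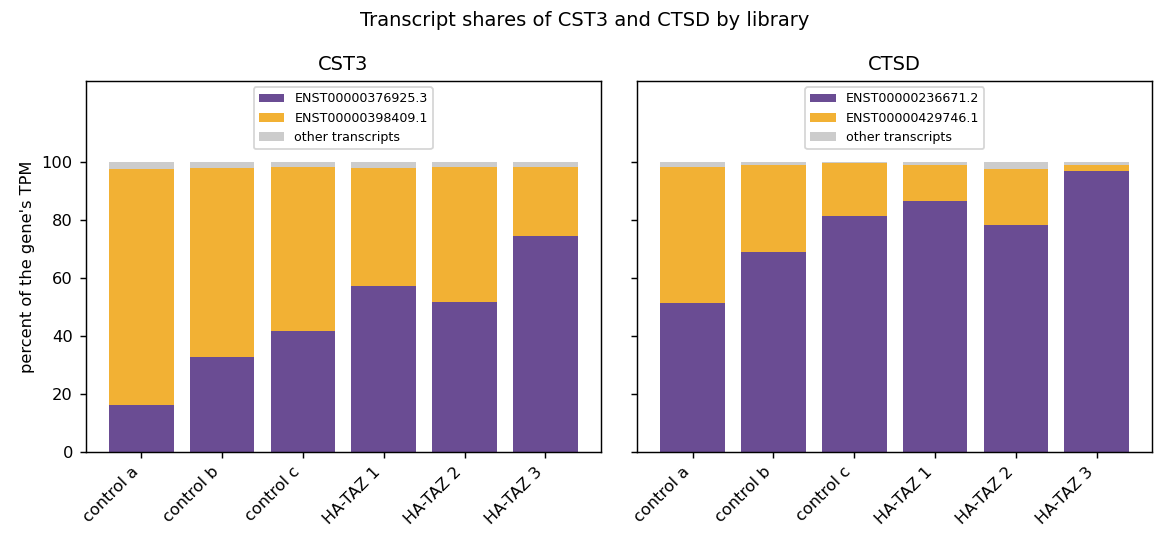
Percent of the gene's TPM on each transcript (vertical axis) in each of the 6 libraries (horizontal axis) for CST3 and CTSD. The purple share, ENST00000376925.3 in CST3, is 16.1 to 41.6% in controls and 51.7 to 74.5% in HA-TAZ libraries, and in CTSD the purple shares of the groups overlap.

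CTSB was spread over 35 transcripts, of which 4 held at least 10% of the gene and none as much as 14%. Transcripts typed as protein-coding in GENCODE release 29 made up 75.0 ± 6.32% of CTSB in HA-TAZ and 55.6 ± 9.31% in control libraries (SD, n = 3 each), with ranges of 67.7 to 79.3% and 45.1 to 62.8% that did not overlap. ENST00000415599.2, with 13.8% of CTSB over all libraries, has no type there and is not counted as protein-coding. Its share was 10.8 ± 5.57% in HA-TAZ and 16.1 ± 5.48% in control libraries, with overlap. Its part in the difference, and in the fold changes that follow, was not tested. With protein-coding transcripts alone and the same scaling factors, the log2 fold change of CTSB turned to 0.27 (SE 0.17), that of LGMN was −0.11 and those of CTSS, CTSC, CTSA, CTSD and CTSZ were 0.38, 0.36, 0.33, 0.29 and −0.28, where the median over all genes tested in this way was 0.13. With factors computed anew from protein-coding transcripts, this median was −0.0027. The values then were 0.13 (SE 0.16) for CTSB, 0.23, 0.21, 0.18 and 0.14 for CTSS, CTSC, CTSA and CTSD, and −0.42 and −0.26 for CTSZ and LGMN. CST3, whose transcripts are all protein-coding, moved to −0.03 through the factors alone. The protein-coding share of the other genes overlapped between the groups or was 100% in all libraries (CST3). CTSH had only 19.5 ± 6.67% and 25.3 ± 10.4% of its TPM on protein-coding transcripts and was not above the filter with these alone.

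In the authors' deposited table, a comparison by sleuth per transcript, 79 of the 118 transcripts had statistics and 6 of them a q-value under 0.05, where 5.68% of all transcripts with statistics had one. All 6 had a positive effect. The share of positive effects among all transcripts with such a q-value was not computed. In the limma fit per transcript in scaled TPM, 80.9% of the 324 called transcripts were higher in HA-TAZ libraries. On the natural log scale, effects in the authors' deposited table were 0.242 (SE 0.0648) and 0.325 (SE 0.0934) for the CTSS transcripts ENST00000368985.3 and ENST00000448301.2. It was 0.333 (SE 0.0716) for ENST00000227266.5 of CTSC, 0.237 (SE 0.0698) for ENST00000191018.5 of CTSA and 0.497 (SE 0.159) for ENST00000236671.2 of CTSD in the authors' deposited table. The other was ENST00000345125.3, a minor protein-coding CTSB transcript at 0.660, 0.700 and 0.956 TPM in HA-TAZ libraries, and in controls listed at 0 in a and c and at 5.85e-10 TPM in b. For the main transcripts of CTSZ and LGMN the authors' deposited table gave −0.184 (SE 0.0628) and −0.101 (SE 0.0794), with q-values of 0.0566 and 0.602. That table rests on the same libraries and is no separate evidence. The authors' deposited table also gives an idea of the depth behind the genes, through means of log estimated counts. Turned back into counts and summed over transcripts with statistics, 7 of 17 for CTSH, these were 169 per library for CTSH. For the others they were 1605 (CTSB) to 6626 (CTSD). The counting error, 1 over the square root of this sum, was 7.69% for CTSH and at most 2.497% for the others. It leaves out the uncertainty of assigning shared reads.

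The genes most like CTSS over the 6 libraries were sought among 11204 genes with a mean of at least 5 TPM, by the root mean square difference of centred log2 values. They were SNHG1 (0.0130), CD47 (0.0155), RRP1B (0.0167), DYNLL1 (0.0177) and ASF1A (0.0179). In scaled TPM their log2 fold changes ranged from 0.33 (DYNLL1) to 0.38 (ASF1A), close to that of CTSS because they were picked by these values. As deposited the groups overlapped in each of them, as in SNHG1, at 170, 187 and 167 TPM in HA-TAZ libraries against 169, 168 and 163 TPM in controls. None of them is a lysosomal peptidase. Among the 9 genes CTSD was the closest to CTSS, at rank 102, before CTSC at 189 and CTSA at 496, while CTSZ was at rank 8362. Libraries and scaling are shared by all genes, so likeness over 6 points is a description only.

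Other genes of the lysosome were read from lists, in which the 9 are not included. Of 17 other lysosomal peptidases 12 were tested, with a median log2 fold change of −0.01, and 1 was called. This was the serine carboxypeptidase SCPEP1, at 56.0 ± 3.19 (HA-TAZ) and 54.5 ± 4.12 (control) TPM (SD, n = 3 each). Its log2 fold change was 0.34 and its adjusted p 0.0146 by limma with Benjamini-Hochberg correction, with a range of 0.0107 to 0.714 over the alternatives, the highest of them with TPM as deposited, where the log2 fold change was 0.04. It was called in 2 of 6 fits that left out a library, and not without HA-TAZ 1, HA-TAZ 2, HA-TAZ 3 or control b. The cathepsins CTSL, CTSK, CTSO, CTSV and CTSW were lowly expressed, with CTSL the highest at 6.19 ± 0.526 and 7.96 ± 0.587 TPM. In scaled TPM none of them was called. As deposited CTSK was called lower, at −0.46 on the log2 scale, and CTSL, CTSO, CTSV and CTSW were not called. CTSF, CTSE and CTSG were below the filter. TPP1, tripeptidyl peptidase of the lysosome, was at 45.02 ± 4.76 and 56.7 ± 6.09 TPM, with a log2 fold change of −0.03 in scaled TPM and −0.33 as deposited, and was called on neither scale.

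Of 15 other inhibitors only CSTB, a cytosolic cystatin, and SERPINB1 passed the filter, and neither was called (log2 fold changes 0.27 and 0.16). CST1, CST2 and CST4, secreted cystatins of the same family as CST3 and close in sequence to each other, were below it. CST1 was at 0.575, 0.748 and 0.412 TPM in HA-TAZ libraries and listed at 0 in every control. CST2 was at 0.191, 0.215 and 0.0601 TPM and also listed at 0 in every control. CST4 was at 0.473, 0.452 and 0.359 TPM against 0, 0 and 0.0378 TPM. The 3 were named after their values were seen, and reads shared between such close copies make the split among them uncertain.

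Lysosomal hydrolases other than proteases had 36 of 38 genes tested, 5 called higher and 1 lower, with a median log2 fold change of 0.11. SMPD1, acid sphingomyelinase, was at 9.63 ± 0.324 (HA-TAZ) and 7.36 ± 0.272 (control) TPM (SD, n = 3 each). In scaled TPM its log2 fold change was 0.61 (SE 0.08), with an adjusted p of 0.0202 (limma, Benjamini-Hochberg), and 0.35 as deposited, where it was also called. PSAP, precursor of the saposins that activate sphingolipid hydrolases, had a log2 fold change of 0.43 in scaled TPM and 0.13 as deposited. For GLA, α-galactosidase, these were 0.38 and 0.10. Both genes were called higher in scaled TPM and not called as deposited. HGSNAT, an acetyltransferase of heparan sulfate degradation, was at 8.10 ± 0.693 (HA-TAZ) and 14.0 ± 1.599 (control) TPM, with log2 fold changes of −0.44 in scaled TPM and −0.72 as deposited, and was called lower on both scales. None of these 4 was called in any fit that left out a library, where the adjusted p of SMPD1 ranged from 0.0523 to 0.0718 (limma, Benjamini-Hochberg).

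Membrane proteins and the proton pump of the lysosome had 35 of 37 genes tested and 7 called, all higher, with a median of 0.19. SCARB2, the receptor that carries β-glucocerebrosidase to lysosomes, was at 90.7 ± 4.27 (HA-TAZ) and 83.8 ± 5.53 (control) TPM (SD, n = 3 each). Its log2 fold change was 0.41 (SE 0.04) in scaled TPM and 0.11 as deposited, where it was not called, and its adjusted p 0.00767 (limma, Benjamini-Hochberg), from 0.00649 to 0.259 over the alternatives, and it lost its call without HA-TAZ 1. LAPTM5, a lysosomal membrane protein of blood cells, was at 2.31 ± 0.479 and 0.258 ± 0.00926 TPM, with a log2 fold change of 1.52 in scaled TPM and 1.39 as deposited. It passed the filter only through the HA-TAZ group, lost its call without HA-TAZ 2 and without control b, and was below the filter without HA-TAZ 1. ATP6V1A, a subunit of the pump, had log2 fold changes of 0.43 in scaled TPM, where it was called higher, and 0.14 as deposited, where the groups overlapped. It was called in no fit that left out a library.

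Of 21 genes of lysosomal sorting and of the MiT/TFE factors 20 were tested, 3 called higher and 1 lower, with a median of 0.05. IGF2R, the large mannose 6-phosphate receptor that delivers hydrolases to lysosomes, was at 37.3 ± 2.32 (HA-TAZ) and 31.2 ± 2.37 (control) TPM. Its log2 fold change was 0.54 (SE 0.04), with an adjusted p of 0.00610 by limma and Benjamini-Hochberg, and it was called in each of the 6 fits that left out a library. With TPM as deposited its log2 fold change was 0.25 and not called. SORT1, sortilin, another sorting receptor, was at 12.3 ± 1.497 (HA-TAZ) and 20.9 ± 1.95 (control) TPM. It was called lower on both scales, with log2 fold changes of −0.44 in scaled TPM and −0.72 as deposited. The adaptor subunits AP3D1 and AP1B1 were called higher in scaled TPM, with log2 fold changes of 0.32 and 0.47, and not called as deposited, where these were 0.02 and 0.19. SORT1, AP3D1 and AP1B1 were called in none of the fits without a library. TFEB, TFE3 and MITF, given for their role, had log2 fold changes of 0.48, 0.43 and −0.31 in scaled TPM and were not called. As deposited these were 0.20, 0.16 and −0.57, and MITF was called lower (limma, Benjamini-Hochberg adjusted p = 0.0337).

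The 5 lysosomal lists together had 105 genes tested, of which 16 were called higher and 2 lower, 17.1%, against 7.29% of all tested genes and 9.66% of tested genes with a protein-coding transcript. The lists were chosen with earlier results of these data known, so nothing is read from this share. The 16 include LAPTM5, which passed the filter only through the HA-TAZ group. In fits that left out a library, at most 2 genes of any of these lists were called. Their median log2 fold change was 0.13, where that of genes with a protein-coding transcript was 0.06. With TPM as deposited the medians were −0.15 and −0.20, so the direction against 0 depends on the scaling. As deposited 2 of the 105 were called higher and 16 lower, 17.1%, where 14.7% of all tested genes were called, 1.15% higher and 13.5% lower. Of the 16 genes called higher in scaled TPM, 15 had a positive log2 fold change as deposited. Of these 16, 2 were called higher as deposited, SMPD1 and LAPTM5, and 0 lower, so the lower calls were of other genes.

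Class II genes and the invariant chain, on which CTSS acts, were read beside the 9. Of 17 genes 10 were tested and 8 called, all higher, where 4.67% of all tested genes were called higher. This list too was chosen with earlier results known, so nothing is read from its counts. HLA-DRB5, 1 of the 8, passed the filter only through the HA-TAZ group (1.49 against 0.620 TPM). The median log2 fold change of the 10 was 0.80, and 0.59 as deposited, where 7 were called higher against 1.15% of all tested genes. CD74, the invariant chain, was at 387 ± 19.6 (HA-TAZ) and 250.1 ± 22.7 (control) TPM (SD, n = 3 each). In scaled TPM its log2 fold change was 0.93 (SE 0.04), with an adjusted p of 0.00138 (limma, Benjamini-Hochberg), and 0.63 as deposited. It was called on both scales and in each fit without a library. HLA-DQA1 and HLA-DRB1 had log2 fold changes of 1.74 and 1.31 in scaled TPM and 1.52 and 1.11 as deposited. Reads of HLA genes are split over IDs of several haplotypes, so their values are uncertain. IFI30, a thiol reductase of the lysosome that opens disulfide bonds of antigens, was at 75.5 ± 2.02 and 58.6 ± 1.79 TPM, with a log2 fold change of 0.66 in scaled TPM and 0.36 as deposited, and was named after its value was seen.

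**Figure D5:**
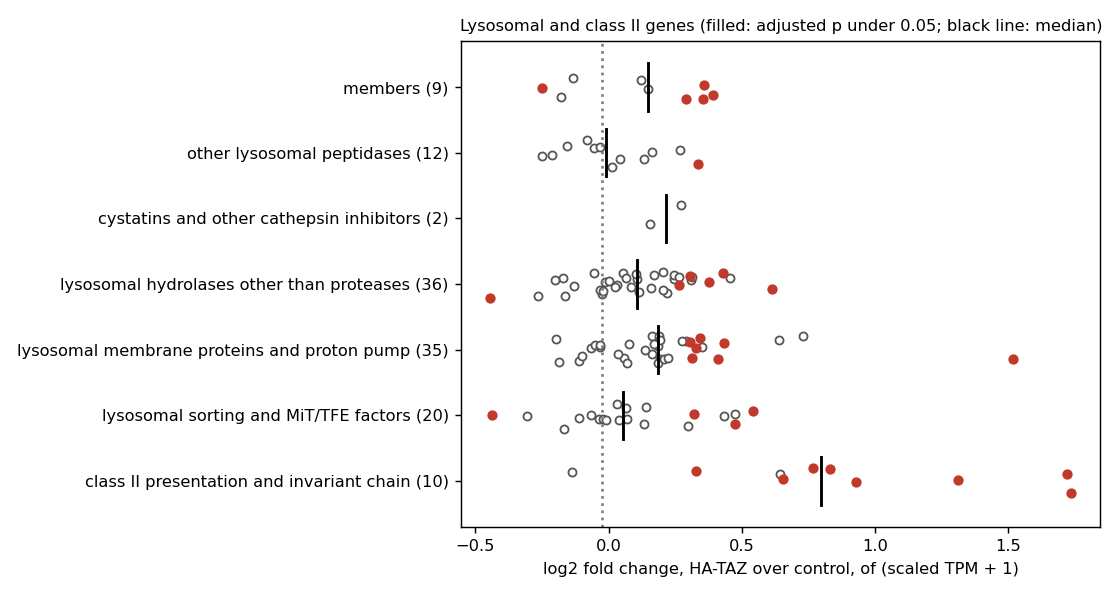
Log2 fold change of HA-TAZ over control of (scaled TPM + 1) for the 9 genes, marked members, and for the tested genes of each list (number in brackets); filled points have an adjusted p under 0.05, black lines are list medians and the dotted line is the median of all tested genes, −0.03. The 9 genes span −0.25 to 0.39, while class II genes reach 1.74.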

How the data were processed

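The authors deposited TPM per transcript for 6 KMS27 libraries, which sum to the same total in each library and carry no depth. They also deposited a sleuth Wald comparison with p-values, q-values and effects on a natural log scale, per the file headers. The submitters' processing notes name kallisto 0.46.0, sleuth 0.30.0 and build GRCh37; the annotation release and whether strand was used are not given in the sources used here, so values of overlapping genes are uncertain. Transcript TPM was added up by gene, with Ensembl gene IDs and symbols as in the sleuth table. Libraries were divided by median-of-ratios factors over 21512 genes above 0 in all libraries with a mean of at least 1 TPM. Genes with a mean of at least 1 TPM were fitted as log2(scaled TPM + 1) with limma 3.58.1 (R 4.3.3, intensity trend); p-values were two-sided and adjusted by Benjamini-Hochberg over all 22651 genes, with a threshold of 0.05. The pseudocount understates changes of low genes. The fit was tested on simulated data. Transcript types and sequences of transcripts came from GENCODE release 29 (GRCh38), which typed 84.7% of transcripts, and were used without coordinates. For list genes with several IDs, the ID on the primary assembly was used. The members and the 6 lists were chosen with earlier results of these data known. Text names, in each list, up to 3 called genes per direction with the smallest adjusted p, transcripts with at least 10% of a gene, the 5 genes most like CTSS, and others where said. Plots were drawn with matplotlib 3.10.9 from tables made with pandas 2.3.3 in Python 3.11.15.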

Additional observations from a re-analysis of the deposited data

How the results depend on the processing

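With TPM as deposited 3329 genes were called (7.84% higher, against 64.0% of the 1652 in scaled TPM), 3 of the 9 members, 3 other peptidases (all lower) and 4 membrane or pump genes (1 higher), and the change of CTSD turned to −0.0053. Without a filter on level 691 genes were called, 2 members (CTSS and CTSC), 2 inhibitors (CST1 and CST4), 1 hydrolase, 2 membrane or pump genes and 1 sorting gene. Without an intensity trend there were 758 genes, 0 members, 1 hydrolase, 2 membrane or pump genes and 2 sorting genes. At a mean TPM of at least 5, 5 class II genes were called. In fits that each left out one library, calls ranged from 118 to 470 for genes, 0 to 1 for members, 0 to 1 for other peptidases, 0 to 2 for membrane or pump genes and 3 to 6 for class II genes, and were 0 for hydrolases and 1 for sorting genes in each. Fewer libraries entered these fits. Transcripts called, 324, became 120 as deposited, 116 without a filter, 2009 at a mean TPM of at least 5, 154 without trend and 13 to 124 with one library left out. For the other settings the cause was not tested. Upper quartile scaling and a pseudocount of 0.1 changed no count by more than 1.5 times, though the latter left 4 members called, without CTSZ. The fit with protein-coding transcripts and unchanged factors was added after seeing the data. No paired analysis was possible because the control columns carry a name that is in no label: the numbers in these names cannot be tied to numbered samples, and the labels tie no numbers across the groups.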
